A study of Mus musculus with 2 samples.

Results

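The 3 Nr4a genes, Nr4a1, Nr4a2 and Nr4a3, were followed through every class of nuclei and through the free RNA of mouse salivary glands, in a Csf2-/- library (null) and a Csf2+/- library (control). The members were taken by symbol from the deposited gene list, where each symbol stood once (ENSMUSG00000023034, ENSMUSG00000026826 and ENSMUSG00000028341), and make up 3 of 26033 genes. The family was selected on measured values of these same libraries, the lower UMI counts of Nr4a3 in the null library, so every difference between the libraries is given here as a description. Nuclei came from whole glands of mice aged 20 days, with no selection of a cell type, and the labels give the background as C56BL/6 for both genotypes. Csf2 encodes GM-CSF, a cytokine that acts on macrophages and their precursors, and the study set glands without it against glands that kept 1 allele. There was 1 library per genotype, and the labels do not say how many mice went into each. No test between the genotypes is therefore possible, and the 95% intervals below cover counting error only.

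Nr4a1 (also called Nur77), Nr4a2 (Nurr1) and Nr4a3 (Nor1) encode orphan nuclear receptors, transcription factors whose ligand pocket is filled by their own side chains, so that their activity follows mainly from how much of them is made. They are early response genes: cyclic AMP, calcium, growth factors, cell stress and handling of tissue raise their transcripts within a short time, and the transcripts decay quickly. The receptors bind DNA as monomers at an element named NBRE, as dimers of their own family, or, for Nr4a1 and Nr4a2, together with an RXR partner. CREB, the factor that cyclic AMP signalling activates, binds the letters TGACGTCA or the shorter TGACG, and Nr4a promoters are among its known targets.

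The stretches of 250 bases before the start of each gene are shown because CREB is a known regulator of all 3 members. They are from RefSeq, build GRCm38.p6, printed 5′ to 3′ on the gene's own strand. Capitals mark TGACG or its reverse complement CGTCA. Nr4a1 lies on the plus strand (chr15:101266596-101266845), Nr4a2 on the minus strand (chr2:57124004-57124253) and Nr4a3 on the plus strand (chr4:48045055-48045304).
Nr4a1: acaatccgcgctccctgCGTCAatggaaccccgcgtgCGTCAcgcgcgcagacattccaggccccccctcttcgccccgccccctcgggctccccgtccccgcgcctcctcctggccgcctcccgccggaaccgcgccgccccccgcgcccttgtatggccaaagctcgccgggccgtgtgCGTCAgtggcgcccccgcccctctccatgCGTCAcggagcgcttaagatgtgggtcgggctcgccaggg
Nr4a2: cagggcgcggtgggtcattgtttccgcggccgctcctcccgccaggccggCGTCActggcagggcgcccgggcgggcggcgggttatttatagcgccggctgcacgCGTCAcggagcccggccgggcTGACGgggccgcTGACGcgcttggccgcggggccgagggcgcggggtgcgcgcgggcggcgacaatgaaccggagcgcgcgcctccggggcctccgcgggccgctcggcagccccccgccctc
Nr4a3: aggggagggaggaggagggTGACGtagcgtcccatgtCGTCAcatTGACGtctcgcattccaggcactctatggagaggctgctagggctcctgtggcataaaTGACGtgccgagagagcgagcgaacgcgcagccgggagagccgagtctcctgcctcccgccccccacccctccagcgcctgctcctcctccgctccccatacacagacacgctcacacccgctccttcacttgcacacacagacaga

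Each of the 3 windows held 4 matches to TGACG, counted on both strands. In Nr4a1 all 4 read CGTCA on the gene's strand, in Nr4a2 the split was 2 and 2, and in Nr4a3 it was 3 TGACG and 1 CGTCA. Counted to the first base of the match, they began 233, 213, 69 and 40 bases before the start in Nr4a1. In Nr4a2 the distances were 200, 144, 123 and 111 bases, and in Nr4a3 they were 231, 213, 205 and 147 bases. Of 32851 windows of the same length, 5836 (17.8%) held at least 1 match and 45 (0.137%) held at least 4. The windows are rich in G and C, with 74.4% in Nr4a1, 80.0% in Nr4a2 and 63.6% in Nr4a3, and TGACG holds a CpG. The 32851 windows were not matched to these shares. The longer palindrome TGACGTCA, which contains TGACG on both strands, was in none of the 3 windows and in 1.55% of all. The NBRE letters AAAGGTCA were in none of the 3 windows and in 1.34% of all. These matches describe the letters of the windows and say nothing of binding in the gland. The part of CREB in the differences between the libraries was not tested.

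The null library held 74339 barcodes with 75630815 UMIs (unique molecular identifiers, each counting 1 captured transcript), and the control library 68460 barcodes with 76002888 UMIs. After filters, 13900 null and 8638 control barcodes were taken as nuclei, with medians of 1974.5 and 2806.5 UMIs. The other barcodes carried the profile of RNA released into the suspension, and those under 1000 UMIs, 37573 in the null and 48385 in the control library, serve as the free-RNA sample. The libraries shared 1367 barcode sequences, of which 27 were nuclei in both. Csf2 itself gave 0 UMIs in the null and 5 in the control library, too few to check the labels. Nuclei fell into 14 classes of at least 89 nuclei per library, 11 of them named from marker genes and 3 given by leading genes. Secretory transcripts, which mark free RNA outside acinar cells, took a larger share of UMIs in the null library in 13 of 14 classes. In fibroblast-like nuclei, which carried 12 of 14 fibroblast markers, that share was 15.8% in the null and 11.9% in the control library.

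Nr4a1 was highest in both libraries in acinar-like nuclei, the main secretory cells, a class that carried 5 of 15 seromucous acinar markers. Its level there was 132 CPM (UMIs per 1000000 UMIs of the class; 1836 UMIs of Nr4a1) in the null and 203 CPM (2343 UMIs) in the control library. In the null library the acinar-like interval, 126 to 139 CPM, did not overlap that of the next class. In the control library it overlapped the endothelial-like class, at 173 CPM. Most classes sat near or below the free RNA, in which Nr4a1 stood at 76.2 CPM in the null and 138 CPM in the control library. The acinar-like level was 1.74 times the free-RNA level in the null and 1.47 times in the control library. At the low end were macrophage-like nuclei, at 37.2 CPM in the null and 68.3 CPM in the control library, 0.488 and 0.494 times the free RNA.

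Nr4a2 gave the most UMIs of the family, 9424 in null and 10977 in control nuclei, and its order of classes also began with acinar-like nuclei. There it reached 449 CPM (438 to 460) in the null and 635 CPM (621 to 650) in the control library, 1.90 and 1.79 times the free-RNA level. Neither interval overlapped that of the following class. Mucous acinar-like nuclei carried 3 of 10 mucous acinar markers, Muc19, Spdef and Galnt12. They had 244 CPM of Nr4a2 in the null and 386 CPM in the control library, 1.04 and 1.09 times the free RNA. The remaining named classes were at 0.512 to 1.02 times the free RNA in the null and 0.508 to 0.778 times in the control library. From the secretory transcripts, free RNA was estimated at 30.5% to 46.2% of UMIs in null and 28.6% to 61.2% in control classes, an estimate that also counts as free what acinar classes make themselves. With that share subtracted, mucous acinar-like nuclei kept 403 of 589 null and 364 of 495 control Nr4a2 UMIs, and luminal duct-like nuclei kept 239 of 444 null and 393 of 706 control ones. The class led by Gabrg3 and Lingo2 had 342 CPM in the null and 345 CPM in the control library. It held 14 of the 15 null and 9 of the 9 control barcodes over 20000 UMIs, the largest with 171879 UMIs and 65 Nr4a2 UMIs. Its leading genes include Elavl4 and Rbfox1, known from neurons, beside 8 of 14 fibroblast markers, and it was left unnamed.

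Nr4a3 had a different order of classes. In the null library acinar-like nuclei had 71.9 CPM (67.5 to 76.5), fibroblast-like nuclei, the collagen-making stromal cells, 63.1 CPM (55.2 to 71.8) and Gabrg3 and Lingo2 nuclei 59.5 CPM, with overlapping intervals. Null free RNA held 24.7 CPM of Nr4a3. In the control library fibroblast-like nuclei were highest, at 399 CPM (378 to 421; 1384 UMIs), 4.15 times the free-RNA level. Acinar-like nuclei followed at 153 CPM (146 to 160; 1766 UMIs), 1.59 times the free RNA, and neither interval overlapped the next. All 12 other control classes lay between 32.8 and 85.9 CPM, below the free RNA at 96.1 CPM. The plot of levels by class shows the 3 orders side by side.

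**Figure D1:**
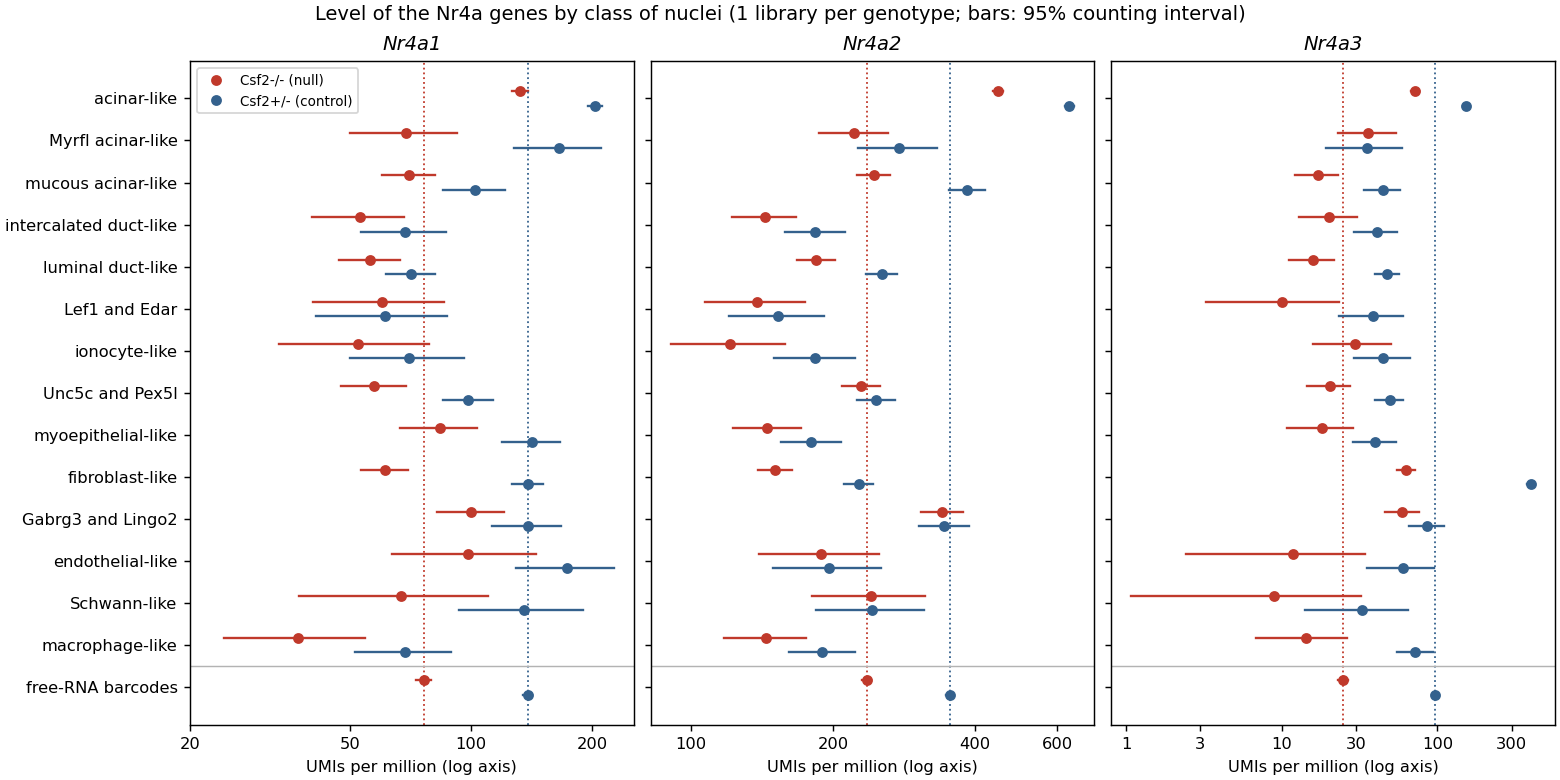
Level of each Nr4a gene (CPM, log axis) in 14 classes of nuclei and in free-RNA barcodes, null (red) and control (blue), with 95% Poisson intervals; dotted lines mark the free-RNA level of each library. Acinar-like nuclei lead for Nr4a1 and Nr4a2 in both libraries, whereas Nr4a3 is highest in control fibroblast-like nuclei at 399 CPM.

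The share of each member in the family's UMIs shows the same contrast between classes. These are shares of UMIs and not levels per length, so each gene is compared between classes and not with the other members. Nr4a3 made up 22.9% of 994 Nr4a UMIs in null and 52.2% of 2651 in control fibroblast-like nuclei. In acinar-like nuclei it gave 997 of 9062 UMIs in the null and 1766 of 11440 UMIs (15.4%) in the control library. Its share in the free RNA was 7.33% in the null and 16.3% in the control library. In macrophage-like nuclei its share was 7.30% of 137 UMIs in the null and 21.8% of 266 in the control library. Nr4a1 took its largest shares in endothelial-like and myoepithelial-like nuclei, 32.9% and 33.9% in the null and 40.3% and 39.1% in the control library.

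**Figure D2:**
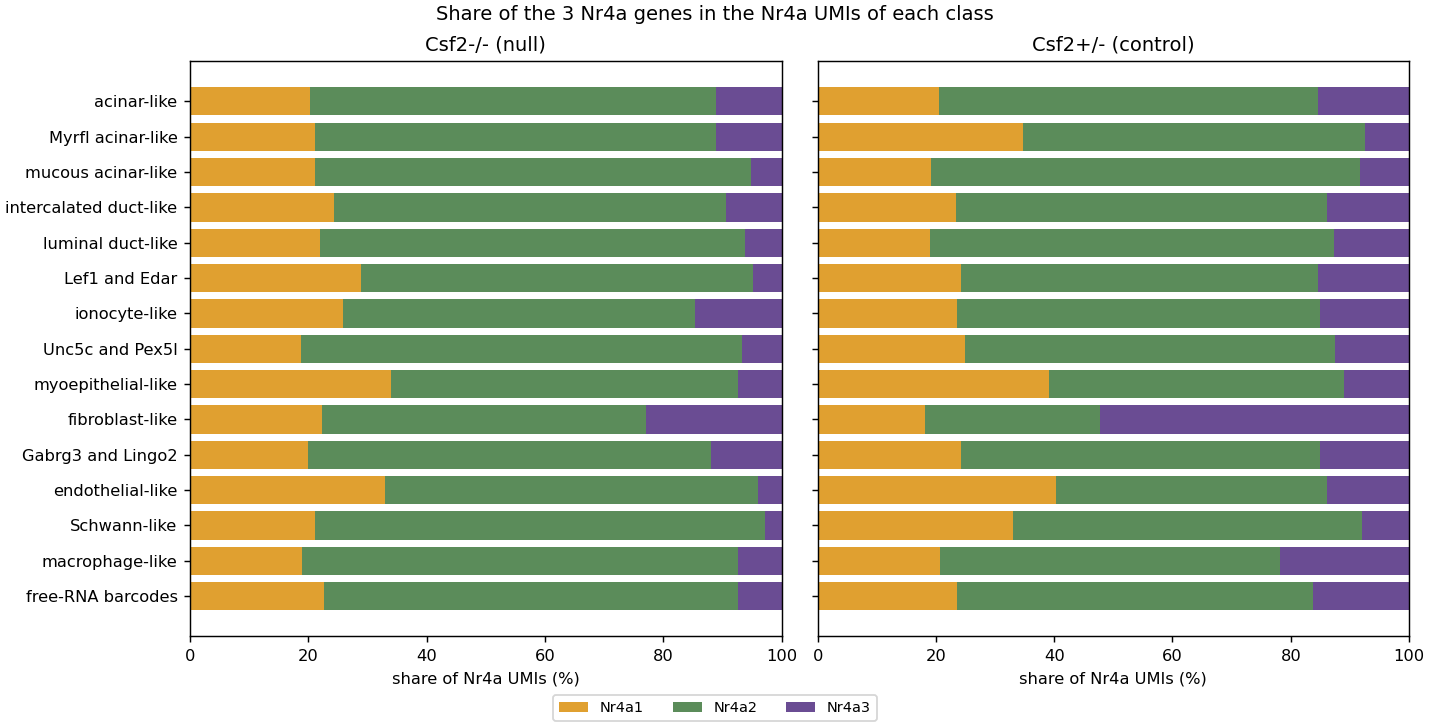
Share (%) of Nr4a1, Nr4a2 and Nr4a3 in the summed Nr4a UMIs of each class, null library left and control library right. Nr4a2 is the largest part in nearly every bar; Nr4a3 makes up 22.9% in null fibroblast-like nuclei and 52.2% in control ones.

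Detection in single nuclei was read at equal depth, and its order of classes was not that of the levels: null Gabrg3 and Lingo2 nuclei had 342 CPM of Nr4a2 but a UMI of it in 16.3% of nuclei, against 19.6% in mucous acinar-like nuclei at 244 CPM. Each nucleus was thinned to 1000 UMIs, which left out 281 null and 168 control nuclei. A Nr4a2 UMI was then seen in 33.1% of null (32.0% to 34.3%) and 44.3% of control (42.8% to 45.9%) acinar-like nuclei. Without thinning the shares were 51.9% in the null and 72.6% in the control library, at medians of 1875 and 2723 UMIs. The lowest thinned shares of Nr4a2 were in ionocyte-like nuclei in the null library, 8.85%, and again in ionocyte-like nuclei in the control library, 13.4%. No class is known to lack the gene, so these low shares are not a measure of background. In the free-RNA barcodes, unthinned and all under 1000 UMIs, 5515 of 37573 null and 9197 of 48385 control ones held 1 Nr4a2 UMI. A further 616 null and 1496 control ones held 2, and 79 and 255 held 3 or more. For Nr4a3 in fibroblast-like nuclei the thinned share was 5.28% (4.21% to 6.53%) in the null and 23.8% (21.2% to 26.5%) in the control library, against 10.4% and 44.6% unthinned at medians of 2154 and 3091.5 UMIs. In Schwann-like nuclei the thinned Nr4a3 share was 1.92% in the null and 2.25% in the control library. Of the same free-RNA barcodes, 702 null and 3048 control ones held 1 Nr4a3 UMI, 15 and 213 held 2, and 0 and 15 held 3 or more.

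All 3 genes were lower in the null library when all nuclei were summed. Nr4a1 was at 95.4 CPM in the null and 148 CPM in the control library, a log2 ratio (null over control) of -0.63 (-0.70 to -0.56). Nr4a2 was at 311 CPM in the null and 413 CPM in the control library, -0.41 (-0.45 to -0.37). Nr4a3 was at 49.7 CPM in the null and 140 CPM in the control library, -1.49 (-1.58 to -1.41). The last was at least 2-fold lower, as were 1.18% of 14503 genes with at least 50 UMIs over all nuclei, and 52 of those genes had a lower ratio than Nr4a3. The interval lay below 0 for all 3 members and for 35.4% of all genes, so Nr4a1 and Nr4a2 shared that feature with many genes. The median of all genes was at -0.08.

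Taken class by class, null nuclei had less Nr4a1 and Nr4a2 in 14 of 14 classes and less Nr4a3 in 13 of 14. With the estimated free RNA subtracted, null nuclei had less Nr4a1 in 10 and more in 4 of 14 classes, less Nr4a2 in 7 and more in 7 of 14, and less Nr4a3 in 4 and more in 5 of the 9 classes that kept at least 3 UMIs in both libraries. All 3 genes stayed lower in acinar-like, mucous acinar-like and fibroblast-like nuclei. The 95% interval lay below 0 in 11 classes for Nr4a1, 7 for Nr4a2 and 11 for Nr4a3. Among all genes with at least 50 UMIs such an interval was found for 29.9% in acinar-like, 10.8% in Myrfl acinar-like, 12.8% in mucous acinar-like, 13.9% in intercalated duct-like and 15.7% in luminal duct-like nuclei. It was found for 9.93% in Lef1 and Edar, 12.2% in ionocyte-like, 14.9% in Unc5c and Pex5l, 12.9% in myoepithelial-like and 17.7% in fibroblast-like nuclei. In Gabrg3 and Lingo2, endothelial-like, Schwann-like and macrophage-like nuclei the shares were 7.66%, 10.1%, 14.8% and 12.1%. A difference of at least 2-fold was reached in 3 classes by Nr4a1, in 0 by Nr4a2 and in 11 by Nr4a3. Where a member had at least 50 UMIs, as the genes of the shares below did, it was reached in 2 classes by Nr4a1 and in 8 of 9 by Nr4a3, and the interval lay below 0 in 10 classes for Nr4a1, 7 for Nr4a2 and 9 for Nr4a3. Among all genes the share that reached it was 1.05% in acinar-like, 0.815% in Myrfl acinar-like, 0.457% in mucous acinar-like, 0.812% in intercalated duct-like and 0.786% in luminal duct-like nuclei. It was 0.872% in Lef1 and Edar, 1.23% in ionocyte-like, 0.634% in Unc5c and Pex5l, 0.756% in myoepithelial-like and 1.16% in fibroblast-like nuclei. In Gabrg3 and Lingo2, endothelial-like, Schwann-like and macrophage-like nuclei it was 2.13%, 1.68%, 3.32% and 0.967%. The counts of Nr4a3 were below 50 UMIs in 3 of its 11 classes, with 5 null and 19 control UMIs in Lef1 and Edar nuclei (-1.95, -3.73 to -0.48), 3 null and 18 control UMIs in endothelial-like nuclei (-2.34, -4.75 to -0.57) and 2 null and 8 control UMIs in Schwann-like nuclei (-1.88, -5.16 to 0.44). At a minimum of 20 UMIs, 2.97%, 4.57% and 6.28% of all genes were at least 2-fold lower in these 3 classes. The median log2 ratio over classes was -0.69 for Nr4a1, -0.33 for Nr4a2 and -1.33 for Nr4a3, while the class medians of all genes lay between -0.12 and 0.08. The exception was Nr4a3 in acinar-like nuclei led by Myrfl, with 23 null and 14 control UMIs and a log2 ratio of 0.04 (-0.98 to 1.11). The classes share the libraries, and each also carries its library's free RNA, so they are not independent of each other.

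**Figure D3:**
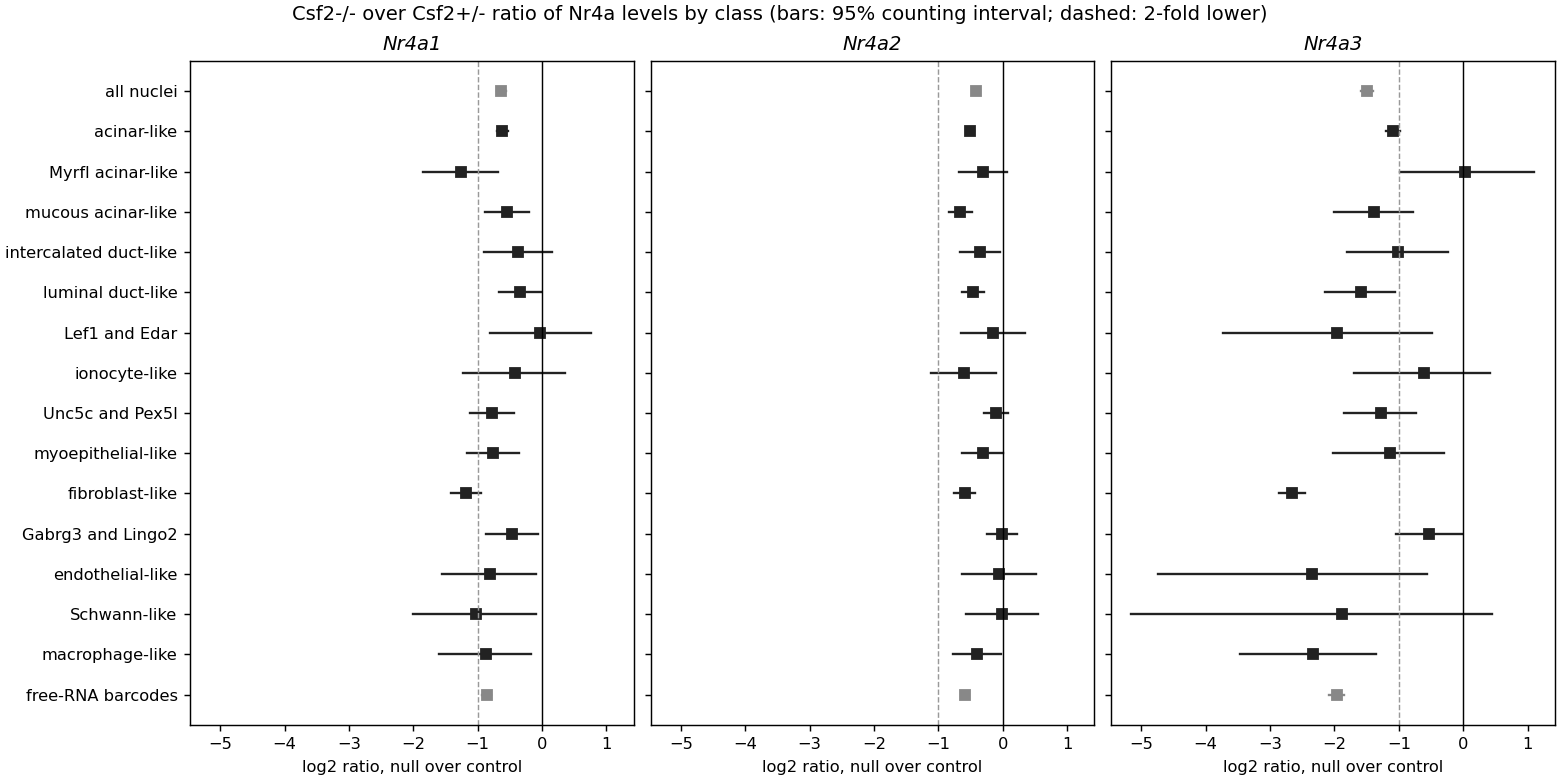
Log2 ratio (null over control) of each Nr4a gene in all nuclei, in each of 14 classes and in free-RNA barcodes, with 95% counting intervals; the dashed line marks 2-fold lower. Nr4a3 in fibroblast-like nuclei stands at -2.66 with a narrow interval, and most points of all 3 genes lie left of 0.

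Free RNA had the same direction. Nr4a1 was at 76.2 CPM in the null and 138 CPM in the control library (log2 ratio -0.86, -0.93 to -0.79). Nr4a2 was at 236 CPM in the null and 354 CPM in the control library (-0.59, -0.63 to -0.55). Nr4a3 was at 24.7 CPM in the null and 96.1 CPM in the control library (-1.96, -2.08 to -1.85). There 3.68% of 13850 genes were at least 2-fold lower, 54.9% had an interval below 0, and the median of all genes was at -0.30, a larger shift than in the classes. The estimated share of free RNA was 35.2% of UMIs in null and 32.4% in control fibroblast-like nuclei, and its part in the class differences is given by subtraction. When the free-RNA profile was subtracted in proportion to the secretory transcripts of each class, most Nr4a3 counts remained in 2 classes. Acinar-like nuclei kept 840 of 997 null and 1274 of 1766 control Nr4a3 UMIs. Fibroblast-like nuclei kept 197 of 228 null and 1276 of 1384 control Nr4a3 UMIs. In the macrophage-like class 2.97 of 10 null and 27.1 of 58 control Nr4a3 UMIs were left, the null count being under the minimum of 3.

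Fibroblast-like nuclei had the lowest ratio of the family and of the class. Nr4a3 gave 228 UMIs (63.1 CPM) in 1542 null and 1384 UMIs (399 CPM) in 1048 control nuclei, a log2 ratio of -2.66 (-2.87 to -2.46). Of 10332 genes with at least 50 UMIs in the class, 0 had a lower ratio, and 1.16% were at least 2-fold lower. Nr4a1 was at 61.1 CPM (221 UMIs) in the null and 138 CPM (480 UMIs) in the control library, -1.18 (-1.41 to -0.95), with 68 genes below it. Nr4a2 was at 151 CPM (545 UMIs) in the null and 227 CPM (787 UMIs) in the control library, -0.59 (-0.75 to -0.43), with 520 genes below it. With free RNA subtracted, 124 of 221 null and 325 of 480 control UMIs of Nr4a1 were left in the class, and 245 of 545 null and 389 of 787 control UMIs of Nr4a2. The intervals of the Nr4a3 ratio in fibroblast-like and acinar-like nuclei do not overlap, but with 1 library per genotype the difference between the classes has no replicate check.

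The UMIs of Nr4a3 were spread unevenly over the fibroblast-like nuclei. In the null library 120 nuclei had 1 UMI, 26 had 2 and 14 had 3 or more, with a highest count of 9. In the control library 205 nuclei had 1 UMI, 94 had 2 and 168 had 3 or more, with a highest count of 19. Nuclei with several Nr4a3 UMIs were thus more frequent in the control class than in the null class. These counts are unthinned, from 1542 null nuclei with a median of 2154 UMIs and 1048 control nuclei with a median of 3091.5 UMIs.

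Clustered again, without the Nr4a genes among the genes used, the fibroblast-like nuclei gave 7 subclusters. The subcluster led by Alpl, a phosphatase of bone and stromal cells, and Chst8, a sulfotransferase, held 34 of 228 null and 913 of 1384 control Nr4a3 UMIs. It had 63 null and 362 control nuclei, and Nr4a3 stood at 187 CPM in the null and 735 CPM in the control ones. Nr4a3 itself, though not used for clustering, and Rgs2 and Gem, both on the list of CREB-responsive genes, are among its leading genes, and Nr4a3 and Gem differ between the libraries, so its size is not compared. Nr4a3 was lower in the null library in each of the 7 subclusters, with log2 ratios from -2.60 to -1.36 and every interval below 0. Without the Alpl subcluster, an alternative added after seeing the data, the ratio of the class was -1.90 (-2.15 to -1.66), from 194 null and 471 control UMIs. The other 6 subclusters had 28.3 to 79.4 CPM in the null and 144 to 336 CPM in the control library. A subcluster led by Myo5b carried 9 luminal duct markers and one led by Cnpy2 carried 4 acinar markers, so the class holds nuclei with markers of other types, whose part in the values was not tested.

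**Figure D4:**
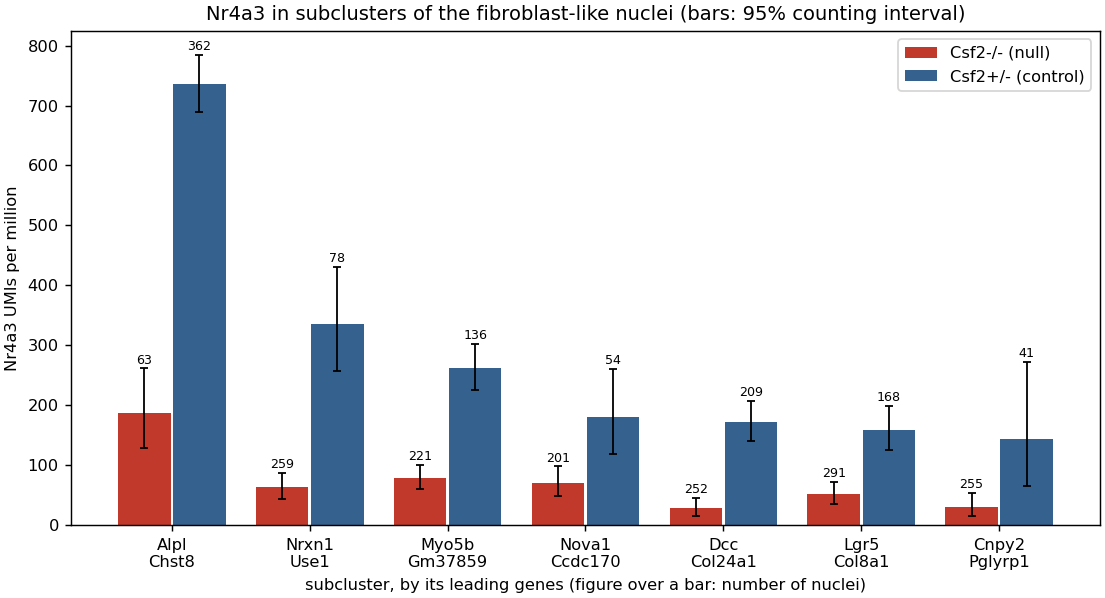
Nr4a3 level (CPM) in 7 subclusters of the fibroblast-like nuclei, null (red, left bar) and control (blue, right bar), with 95% Poisson intervals and the number of nuclei above each bar. The control bar is the higher in every pair, and the subcluster led by Alpl and Chst8 is highest in both libraries, at 187 CPM in null and 735 CPM in control nuclei.

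Of the UMIs in null nuclei, the acinar-like class held 63.4% for Nr4a1, 66.1% for Nr4a2 and 66.1% for Nr4a3. In the control library it held 59.6%, 66.8% and 47.5%. Nr4a1 had a log2 ratio of -0.62 (-0.71 to -0.53), Nr4a2 of -0.50 (-0.55 to -0.45) and Nr4a3 of -1.09 (-1.20 to -0.98). Of 11895 genes in the class, 1.05% were at least 2-fold lower, and 83 had a lower ratio than Nr4a3. The class joins 2 clusters that the libraries fill unevenly: cluster 0 held 5815 null and 494 control nuclei, cluster 1 held 1154 null and 3525 control nuclei. The first of the leading genes of cluster 1 is the ribosomal RNA entry 5_8S_rRNA, which was at least 2-fold lower in the null library in 9 classes. Dusp5 and Irs2, which are on lists below, are also among the leading genes of cluster 1. Within cluster 0 the ratios were -0.28 for Nr4a1, -0.27 for Nr4a2 and -0.76 for Nr4a3, with 124, 412 and 94 UMIs of these genes in the 494 control nuclei. Within cluster 1 they were -0.59, -0.44 and -1.10. All 6 intervals lay below 0. Null nuclei of cluster 0 had a secretory share of 21.6%, against 24.1% in control ones, and a median of 1769 UMIs, against 1504.5 in control ones. The part of depth and free RNA in these ratios was not tested.

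In the other secretory classes the counts were smaller. Mucous acinar-like nuclei had Nr4a1 at 70.0 CPM in the null and 102 CPM in the control library (-0.54, -0.88 to -0.20). Nr4a2 was at -0.66 (-0.83 to -0.48) there, the lowest ratio of Nr4a2 in any class. Myrfl acinar-like nuclei had Nr4a1 at 68.8 CPM in the null and 165 CPM in the control library (-1.27, -1.85 to -0.69), the lowest ratio of Nr4a1 in any class, from 44 null and 66 control UMIs. Only 7 of 3803 genes in that class had a lower one.

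Duct classes were at or below the free RNA in nearly every value. Luminal duct-like nuclei, in which Klk1 and sodium channel subunits are made, had Nr4a3 at 15.8 CPM in the null and 47.4 CPM in the control library (-1.59, -2.15 to -1.06). Intercalated duct-like nuclei had Nr4a3 at 20.2 CPM in the null and 40.7 CPM in the control library (-1.01, -1.81 to -0.24). Ionocyte-like nuclei, the Foxi1 and Cftr cells, had 13 null and 25 control Nr4a3 UMIs (-0.60, -1.69 to 0.42). For these 3 classes the Nr4a3 level was 0.639 to 1.20 times the free RNA in the null and 0.423 to 0.494 times in the control library. Subtraction turned the sign of Nr4a3 in intercalated duct-like nuclei, where 11.3 null and 4.4 control UMIs remained. It did so too in ionocyte-like nuclei, where 9.04 null and 7.16 control UMIs remained. In luminal duct-like nuclei Nr4a3 stayed lower, with 16.5 null and 47.1 control UMIs left. The sign of Nr4a1 turned in all 3 classes, and Nr4a2 stayed lower in all 3.

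Myoepithelial-like nuclei, the contractile Acta2 cells around the acini, and endothelial-like nuclei held Nr4a1 slightly above the free RNA. In myoepithelial-like nuclei Nr4a1 was at 83.6 CPM in the null and 141 CPM in the control library (-0.76, -1.16 to -0.36), 1.10 and 1.02 times the free RNA. In endothelial-like nuclei it was at 98.4 CPM in the null and 173 CPM in the control library (-0.81, -1.56 to -0.10), 1.29 and 1.25 times the free RNA. The interval of each of these levels includes the free-RNA level of its library.

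Macrophages are cells on which GM-CSF is known to act, and the macrophage-like class carried 16 of 16 macrophage markers. Nr4a1 had 26 null and 55 control UMIs (-0.88, -1.61 to -0.18), and Nr4a2 had 101 null and 153 control UMIs (-0.40, -0.77 to -0.02). Nr4a3 had 10 UMIs (14.3 CPM) in 349 null and 58 UMIs (72.0 CPM) in 316 control nuclei, -2.33 (-3.47 to -1.35), and 1 of 5380 genes had a lower ratio. At least 2-fold lower were 0.967% of those genes. Both Nr4a3 levels were below those of the free RNA, 24.7 CPM in the null and 96.1 CPM in the control library. Split again, the class gave 9 subclusters. The subcluster led by Aldh1a2, with 6 dendritic cell markers, held 1 null UMI of Nr4a3 in 12 nuclei and 14 control UMIs in 20 nuclei. The subcluster led by Myrip, which carried 3 acinar markers, held 1 null and 14 control UMIs, and the one with 5 NK or ILC1 markers held 0 null and 8 control UMIs. In the Lyve1 and Cd163 subcluster, which had 94 null and 84 control nuclei and 6 macrophage markers, Nr4a3 had 2 null and 7 control UMIs. These counts were under the minimum of 10 UMIs for a ratio. The Nr4a3 ratio of the class thus includes nuclei with markers of other cell types and is not shown for macrophages alone.

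Genes of the pathways around the receptors were read from lists, chosen with earlier results of these data known. Of 13 measured CREB-responsive genes, null fibroblast-like nuclei had 12 at a lower level and 1 at a higher one. The interval lay below 0 for 10 of them, against 17.7% of all genes, and 7 were at least 2-fold lower, against 1.16% of all genes. Their median log2 ratio was -1.02, with the median of all genes in the class at -0.03. Gem, a small GTPase, had 31.5 CPM in the null and 85.9 CPM in the control library (-1.45, -1.77 to -1.13). Pde10a, a cyclic nucleotide phosphodiesterase, had 686 CPM in the null and 1590 CPM in the control library (-1.21, -1.28 to -1.14). Sik1, a kinase that restrains the CREB coactivators, had 48.4 CPM in the null and 112 CPM in the control library (-1.22, -1.48 to -0.95). Crem, whose short product ICER represses CREB targets, was at -0.90 (-1.22 to -0.60). Several genes stand on more than 1 list. Rgs2 and Gem are among the leading genes of the Alpl subcluster, which held 63 null and 362 control nuclei. The CREB-responsive genes were not read without that subcluster, and its part in their ratios was not tested.

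The cyclic AMP pathway itself had a median closer to that of all genes. Of its 18 measured genes 14 were lower and 4 higher in null fibroblast-like nuclei, with a median of -0.13. The interval lay below 0 for 7, against 17.7% of all genes, and above 0 for 1, against 11.6%. Creb1 was at 102 CPM in the null and 129 CPM in the control library (-0.34, -0.54 to -0.14). Crtc3, a CREB coactivator, was higher, at 226 CPM in the null and 173 CPM in the control library (0.38, 0.23 to 0.54). Of the calcium, MEF2 and SRF genes 14 of 18 were lower, 8 with the interval below 0, against 17.7% of all genes. Their median was -0.15. Ppp3cb, a calcineurin subunit, was at -0.58 (-0.76 to -0.41).

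Most other immediate early genes were lower as well, and a few were higher. Null fibroblast-like nuclei had less of 18 and more of 6 among 24 such genes, and the list's median was -0.49. The interval lay below 0 for 12, against 17.7% of all genes, and above 0 for 1, against 11.6%. Fosl2, an AP-1 subunit, was at 18.3 CPM in the null and 76.7 CPM in the control library (-2.07, -2.48 to -1.68). Dusp1, a phosphatase of MAP kinases, was at -1.22 (-1.47 to -0.98), Egr1 at -1.22 (-1.82 to -0.65) and Ccn1 at -1.58 (-2.09 to -1.09). Btg1 went the other way, at 34.6 CPM in the null and 20.5 CPM in the control library (0.76, 0.33 to 1.20). Over all nuclei 25 of 31 were lower and 6 higher, and Ier2 (0.71, 0.54 to 0.87) and Junb (0.26, 0.09 to 0.43) were among the higher ones. Fos, the classic member, had only 39 null and 51 control UMIs in all nuclei (-0.58, -1.22 to 0.05).

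**Figure D5:**
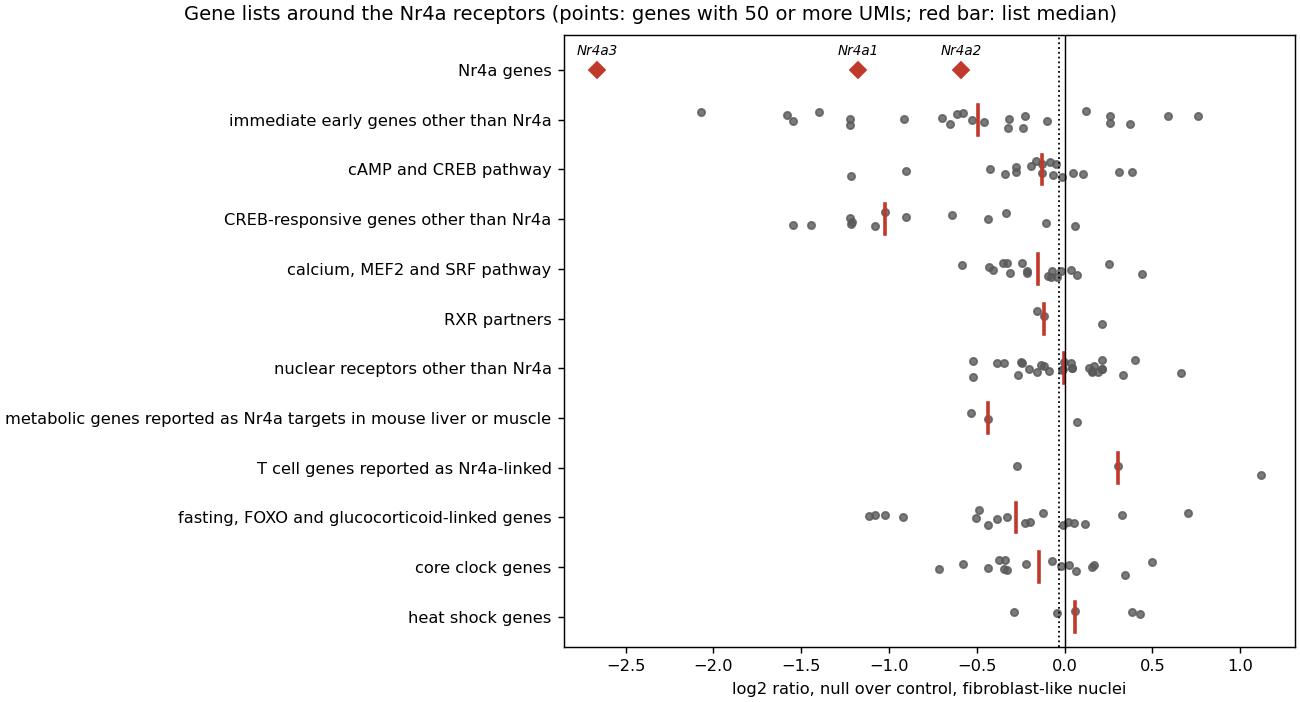
Log2 ratio (null over control) in fibroblast-like nuclei of the 3 Nr4a genes (diamonds) and of each measured gene of 11 lists (points, 50 or more UMIs), with the list median as a red bar and the median of all genes, -0.03, as a dotted line. The CREB-responsive genes have the lowest list median, -1.02.

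Heat shock genes, which respond to warming and protein damage during handling, had the opposite direction to the Nr4a genes. Over all nuclei 9 of 9 had more UMIs per total in the null library, 8 with the interval above 0, against 17.7% of all genes. Hspa1b was at 17.0 CPM in the null and 7.72 CPM in the control library (1.14, 0.90 to 1.38), and Hspe1 at 53.6 and 31.6 CPM in those libraries (0.76, 0.64 to 0.88). In fibroblast-like nuclei 3 of 5 were higher and 2 lower. The part of tissue handling in the Nr4a values was not tested, and with 1 library per genotype the preparation and the genotype cannot be told apart.

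Fasting, FOXO and glucocorticoid-linked genes were lower in null fibroblast-like nuclei in 13 of 18 cases and higher in 5. The interval lay below 0 for 9, against 17.7% of all genes. Bcl6, a transcriptional repressor, was at 70.6 CPM in the null and 152 CPM in the control library (-1.11, -1.33 to -0.89). Irs2, an adaptor of the insulin receptor, was at -1.08 (-1.28 to -0.89), and Klf15 was higher (0.70, 0.34 to 1.07). Core clock genes, which sample time of day, were lower in 10 of 16 cases and higher in 6, with a median of -0.15. Nfil3 was at -0.58 (-0.90 to -0.26) and Dbp at 0.50 (0.19 to 0.81) there, and over all nuclei Arntl was at -0.84 (-0.98 to -0.71) and Dbp at 0.73 (0.61 to 0.85). The labels do not give the hour or feeding state at collection.

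The other nuclear receptors showed no common direction. Of 29 measured in fibroblast-like nuclei 15 were lower and 14 higher. The interval lay below 0 for 6, against 17.7% of all genes, and above 0 for 5, against 11.6%. None was at least 2-fold different, and among all genes 1.16% were so in each direction. Rxra, an RXR partner of Nr4a1 and Nr4a2, had 99 null and 82 control UMIs (0.21, -0.22 to 0.65). Metabolic genes reported as Nr4a targets in mouse liver or muscle were mostly too low to read, with 3 of 16 measured in fibroblast-like nuclei, and Lpin1 was at -0.43 (-0.66 to -0.21). Over all nuclei 9 of 11 were lower, and the interval lay below 0 for 5 of 11, near the 35.4% of all genes. Of the T cell genes reported as Nr4a-linked 3 were measured in fibroblast-like nuclei, among which Tox2 was higher, with 77 null and 34 control UMIs (1.12, 0.52 to 1.75), and Ikzf2 was lower (-0.27, -0.42 to -0.12).

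Likeness between genes was read over 28 points, 14 classes in each of 2 libraries, as Pearson's r of log2(CPM + 1) among 11855 genes with at least 200 UMIs. The points of a library share its free RNA and depth, so these values are descriptions. For Nr4a1 the 5 genes most like it were Dusp5 (0.80), Srebf1 (0.76), Azin1 (0.74), Stk25 (0.73) and Srsf5 (0.71). For Nr4a2 they were Gpr155 (0.89), Pex11a (0.88), Pim3 (0.85), Nfil3 (0.84) and Rap1gap (0.84). For Nr4a3 they were Irs2 (0.79), Myef2 (0.76), Dusp1 (0.76), Pi15 (0.72) and Morf4l2 (0.70). The 28 points also carry the difference between the libraries, and within 1 library, over 14 points, the genes most like Nr4a3 differed. They were Mrps26 (0.86), Klhl33 (0.81), Irs2 (0.81), Bcas2 (0.79) and Rab3a (0.78) in the null library. In the control library they were Svep1 (0.89), Epha3 (0.85), Trhde (0.85), Cygb (0.82) and Coq10b (0.82). Within the family r over the 28 points was 0.66 for Nr4a1 with Nr4a2, 0.58 for Nr4a1 with Nr4a3 and 0.48 for Nr4a2 with Nr4a3. Each member thus had several genes outside the family that were more like it. In the null library alone these pairs had r of 0.72, 0.42 and 0.44, and in the control library alone 0.56, 0.35 and 0.34.

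Genes at least 2-fold lower in every class were also counted. Nr4a3 had at least 50 UMIs in 9 classes, and 4413 genes were measured in all of them. Of these, 1 was at least 2-fold lower in the null library in all 9 classes, the ribosomal RNA entry 5_8S_rRNA. Nr4a3 itself missed that mark in Gabrg3 and Lingo2 nuclei, at -0.53 (-1.05 to -0.01), so the count does not say how many genes are like it.

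Whether the members were made in the same nuclei was read after thinning to 1000 UMIs. In acinar-like nuclei Nr4a1 and Nr4a2 were seen together in 290 of 6833 null and 308 of 3893 control nuclei, where the product of their shares gives 272 and 301. Nr4a1 and Nr4a3 were seen together in 61 null and 106 control nuclei, where the product gives 55.8 and 90.4. In fibroblast-like nuclei Nr4a1 and Nr4a3 were seen together in 3 null and 34 control nuclei, where the product gives 3.86 and 26.6. For Nr4a2 with Nr4a3 the control fibroblast-like nuclei gave 50 with both, where the product gives 44.7. Within these 2 classes the counts lay between 0.778 and 1.28 times the products.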

How the data were processed

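The authors deposited raw UMI counts for each barcode. Per the file headers they come from Cell Ranger 7.0.0, and per the submitters' processing notes the build was GRCm39. The annotation and the counting of introns are not given in the sources used here. Barcodes needed 500 UMIs, 300 genes and a mitochondrial share under 5%, and were clustered with Scanpy 1.11.5 (Leiden, igraph 0.11.9). Clusters whose share of 8 secretory genes was at least 0.75 times that of barcodes under 1000 UMIs were taken as free RNA, and the nuclei were clustered again at resolution 1.0. The Nr4a genes were left out of clustering. Doublets were not removed. Class sums in each library were turned into CPM, and log2 ratios were given exact conditional binomial intervals (SciPy 1.17.1). Levels have Poisson and shares exact binomial intervals. Ratios needed 10 UMIs, genes and lists 50. In simulated data at the depth of fibroblast-like nuclei (10265 genes) the interval lay below 0 for 90 of 100 genes lowered 2-fold. It also did so for 222 unchanged genes. The simulation drew counting error alone, as the interval assumes, so it does not cover other differences between libraries. Genes outside the family were named by size within each list, by the bound nearest 0. The members, lists and rules were chosen with earlier results of these data known.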

Additional observations from a re-analysis of the deposited data

Results flagged for a closer look

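The log2 ratio of Nr4a3 was 0.04 (-0.98 to 1.11) in the Myrfl acinar-like class, with 23 null and 14 control UMIs, and its sign was opposite to that in the other 13 classes. The difference between this class and the others was not tested.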

How the results depend on the processing

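No paired analysis was possible because each genotype had 1 library. The log2 ratios of the 3 genes stayed negative under every alternative run in all nuclei, fibroblast-like nuclei, acinar-like nuclei and free-RNA barcodes. With the median ratio of all genes set to 1, the values were -0.55 (Nr4a1) and -0.33 (Nr4a2) in all nuclei and -0.56 (Nr4a1), -0.29 (Nr4a2) and -1.66 (Nr4a3) in free RNA, since the median of all genes lay at -0.08 in all nuclei and at -0.30 in free RNA. With totals that left out the 100 most abundant free-RNA genes they were -0.54, -0.32 and -1.40 in all nuclei and -0.56, -0.28 and -1.66 in free RNA. With free RNA subtracted they were -0.50, -0.31 and -1.32 in all nuclei. At standardised class composition Nr4a2 was at -0.46 in all nuclei. In fibroblast-like nuclei Nr4a2 was at -0.34 at clustering resolution 0.5 and at -0.34 at resolution 2.0, Nr4a1 at -1.47 with nuclei classed by at least 3 markers, and Nr4a3 at -2.90 without the 1% of nuclei richest in it and at -1.90 without the Alpl subcluster. In free RNA Nr4a3 was at -1.84 under 1% mitochondrial UMIs and at -2.73 without the richest 1% of barcodes, which removes many of the 717 null barcodes with a UMI. Subtraction of free RNA turned the sign in 16 of 37 class values, none of them in acinar-like, mucous acinar-like or fibroblast-like nuclei, and 6 of the 16 had an interval below 0 before: Nr4a3 in intercalated duct-like (1.27), Unc5c and Pex5l (0.46), myoepithelial-like (1.21) and Gabrg3 and Lingo2 nuclei (0.31), Nr4a1 in luminal duct-like (0.18) and Nr4a2 in macrophage-like nuclei (0.0149). Genes at least 2-fold lower numbered 257 at a minimum of 20 UMIs and 44 at 200 UMIs in fibroblast-like nuclei, and 323 and 51 in all nuclei; those at least 2-fold higher numbered 301 and 17, and 276 and 54. For these values the cause was not tested. Scrublet marked 0.108% of null and 3.87% of control nuclei. The reason for these uneven shares was not tested, so the alternative without the marked nuclei is not taken as a check on doublets.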
